A study of Rattus norvegicus with 9 samples.

Results

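The proteasome genes of rat lung were followed through ischemia/reperfusion and ischemic post-conditioning. Members were the genes that the deposited table assigns to the KEGG proteasome pathway, with a mean of at least 0.5 FPKM over the 9 libraries (FPKM is a level per length, the fragments of a gene scaled by its transcript length and by the size of the library). The pathway held 48 genes of 22833 in the table, and 45 passed this minimum, out of 15402 genes that passed it in all. They comprised 40 constitutive genes, the 3 catalytic subunits of the immunoproteasome (Psmb8, Psmb9 and Psmb10) and both subunits of the activator PA28 (Psme1 and Psme2). The 3 genes under the minimum were Ifng, Psma8 and Psmb11, the last a subunit of the thymus.

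All libraries were made from polyadenylated RNA of the lung of male Sprague-Dawley rats aged 8 weeks, with 3 libraries in each of 3 groups. Sham rats had the left hilum of the lung exposed and not clamped. The IR group had 30 min of clamping and 2 h of reperfusion, and the I-post C group had the same clamping and reperfusion with 3 cycles, each with 30 s of renewed clamping and 30 s of release, in between. Every rat was anesthetized, heparinized, ventilated and opened at the chest, so these procedures are common to all groups. The replicate spread below is that between the 3 libraries of a group. Whole tissue was sequenced, so fewer cells of a type and less RNA per cell cannot be told apart.

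The proteasome is the protease that degrades proteins tagged with ubiquitin. Its core is a barrel of outer alpha rings and inner beta rings, in which Psmb5, Psmb6 and Psmb7 cut the peptide chain, and a regulatory cap of ATPases, ubiquitin receptors and lid subunits admits the substrate. Interferon gamma induces Psmb8, Psmb9 and Psmb10, which take the places of Psmb5, Psmb6 and Psmb7 in newly built particles and, with PA28, favor peptides that fit MHC class I molecules, while loss of proteasome activity raises the constitutive subunits through the transcription factor NRF1 (Nfe2l1).

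Sequences of the promoters were searched for the response elements of these 2 routes, since the constitutive and the immunoproteasome genes are described apart. RefSeq windows of 300 bases (250 before and 50 after the start of the gene, GRCr8) were found for 39 of the 45 members, and Psmd12, Psmd14, Psmd6, Psma3l, Psma7 and LOC100911238 had no entry. The interferon-stimulated response element, searched as GAAA, any 2 bases and GAAA on both strands, was in the windows of 6 of the 39 members (15.4%) and in 3.92% of all 33469 windows. It was in the windows of Psmb8, Psmb10 and Psme2, and also in those of the constitutive genes Psma4, Psmb3 and Psmd7. The antioxidant response element, searched as TGACNNNGC on both strands, was in the windows of 8 members (20.5%) and in 12.1% of all windows. All 8 members were constitutive, as were 34 of the 39 members with a window. Only 3 immunoproteasome and 2 PA28 genes had a window, too few to compare the classes. The 2 sets, of 6 and 8 members, shared no gene, and whether sets this small would share one was not tested. The matches of Psmb10 and Psme2, 2 genes of the interferon route, and of Psmb5 and Psmb6, 2 of their constitutive partners, are shown with the matched letters in capitals and 15 flanking bases on each side where the window before the start allowed it. The matches of Psmb10 lie at chr19:50743341-50743380 and chr19:50743293-50743324 on the minus strand, that of Psme2 at chr15:33052780-33052819 on the minus strand, that of Psmb5 at chr15:32047416-32047454 on the minus strand and that of Psmb6 at chr10:55737849-55737887 on the plus strand. A match is a description of the letters and not of binding.
Psmb10, first match: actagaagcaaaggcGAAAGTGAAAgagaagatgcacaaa
Psmb10, second match: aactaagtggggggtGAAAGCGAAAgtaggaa
Psme2: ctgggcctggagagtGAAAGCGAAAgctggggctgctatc
Psmb5: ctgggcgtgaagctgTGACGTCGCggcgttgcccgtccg
Psmb6: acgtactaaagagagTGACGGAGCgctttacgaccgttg

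Total counts ranged from 45110590 to 51214941 per library. In principal components of log2 FPKM, Sham 3 and IR 3 lay farthest out, Sham 3 at 100.8 on the first component and IR 3 at 70.8 on the second. Sham 1 was the lowest library on the second, at -41.1. IR 3 also held muscle transcripts, with a summed 3274 FPKM of 6 muscle markers against 3.74 to 46.2 in the other libraries. The alveolar epithelial markers were abundant throughout (Sftpc, 15691 to 37521 FPKM). The 6 macrophage markers summed to 133 to 167 FPKM in every library, although Marco, one of them, was listed at 0 in 8 of the 9. edgeR's quasi-likelihood test with Benjamini-Hochberg adjustment called 47 genes in IR against Sham and 0 in the other 2 comparisons at an adjusted p under 0.05, and counts by DESeq2 stand beside the members' counts.

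The proteasome genes were strongly expressed in the lung, and the constitutive ones varied little between libraries. The members together took 0.570% (Sham 1) to 0.702% (Sham 3) of all FPKM, and the mean level of 44 of the 45 members was above the median gene (7.95 FPKM), with a median over the members of 66.7 FPKM. Their coefficient of variation over the 9 libraries had a median of 16.0%, against 30.1% over all genes tested. Without Sham 3 the medians were 11.3% and 25.1%. No genes matched to the members in level were compared, so a low spread cannot be told apart from a high level. By class the median was 14.9% for the constitutive genes, 16.7% for PA28 and 33.1% for the immunoproteasome subunits, 2 of which lay above the median of all genes, and without Sham 3 that of the immunoproteasome was 16.3%. Psmd2, a scaffold of the base of the cap, was the steadiest member in FPKM and was singled out after its values were seen. It measured 69.5, 67.0 and 65.1 FPKM in Sham, 67.2, 70.5 and 61.1 FPKM in IR and 67.1, 65.9 and 64.3 FPKM in I-post C. In FPKM the groups overlapped almost entirely, and only 2 of the 15402 genes had a lower coefficient of variation than its 4.20%. In counts scaled by library size (CPM), its I-post C libraries (200.7 to 211.6) all lay below its IR libraries (212.3 to 237.8). Coefficients of variation were not computed on that scale.

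Mean levels are given by the parts of the particle, whose ranges overlapped. In the alpha ring, whose subunits gate the entrance to the core, mean levels ran from 30.8 FPKM for Psma4 to 138.5 FPKM for Psma2 over 7 genes. The 4 structural genes of the beta ring ran from 82.1 FPKM (Psmb2) to 175.9 FPKM (Psmb1), and the 3 constitutive catalytic genes from 75.3 FPKM (Psmb5) to 93.5 FPKM (Psmb6). The 6 ATPases that unfold substrates at the base of the cap lay between 40.9 FPKM (Psmc6) and 106.9 FPKM (Psmc3). The other 4 genes of the base, which hold the scaffolds and ubiquitin receptors, lay between 33.4 FPKM (Psmd1) and 73.9 FPKM (Psmd4, a ubiquitin receptor). The lid genes, which surround the deubiquitinase Psmd14, had a lower median than the alpha ring, from 24.1 FPKM (Psmd11) to 77.9 FPKM (Psmd13) with a median of 53.8 FPKM over 9 genes, against 97.8 FPKM in the alpha ring. The constitutive activators Psme3 and Psme4 and the inhibitor Psmf1 lay between 22.0 and 26.6 FPKM, below every alpha and beta subunit but LOC100360846. The immunoproteasome subunits were present at 33.4 FPKM (Psmb9), 38.2 FPKM (Psmb8) and 65.6 FPKM (Psmb10) on average, and the alpha subunit of PA28, Psme1, was the most abundant member of all at 194.5 FPKM. The least abundant member was LOC100360846, annotated as similar to Psmb6, at 2.6 FPKM.

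**Figure D1:**
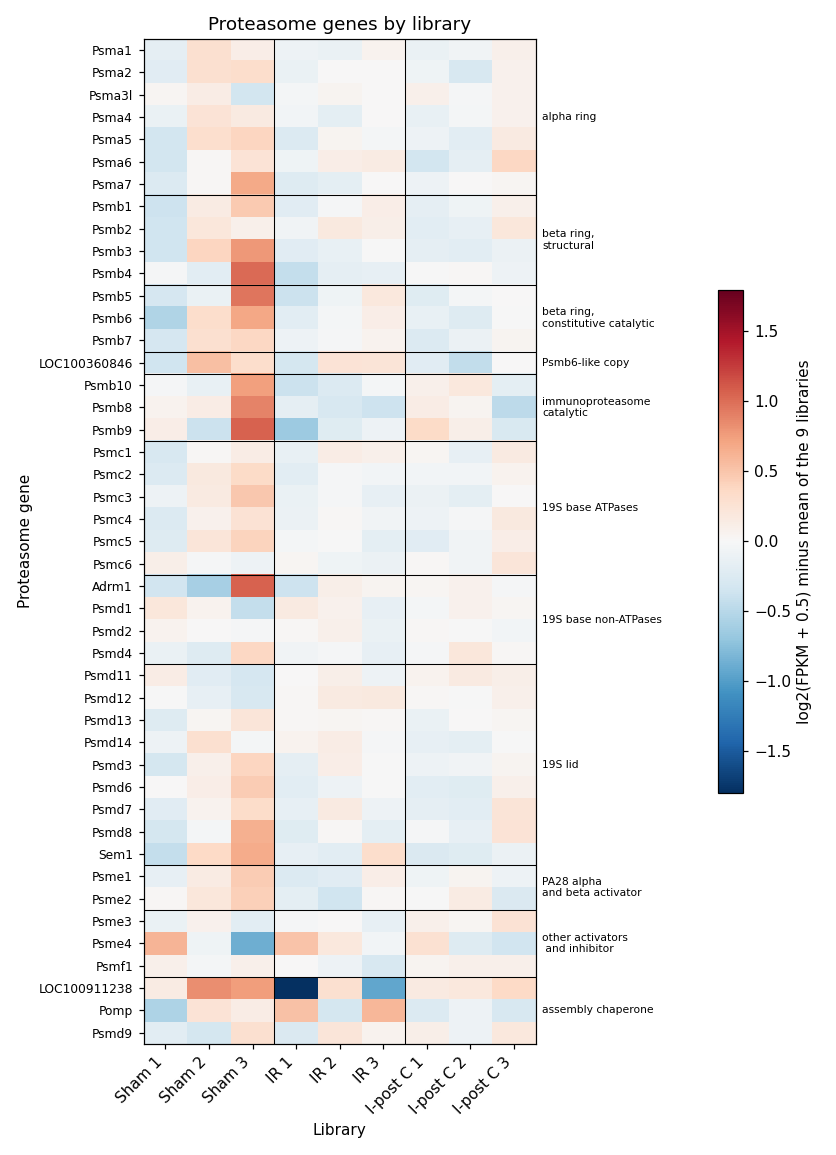
Level of each of the 45 proteasome genes (rows, grouped by their place in the particle) in each of the 9 libraries (columns), as log2(FPKM + 0.5) minus the mean of that gene over the 9 libraries; red is above and blue below that mean. Sham 3 holds the highest value for 28 genes and Sham 1 the lowest for 18, while the IR and I-post C columns stay pale for most genes.

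The widest spread of the proteasome genes was within the Sham group. Of the 45 members, 28 (62.2%) were highest in Sham 3, where 23.9% of all genes were highest, and 18 (40.0%) were lowest in Sham 1, where 8.93% of all genes were lowest. The 6 libraries of clamped lungs all fell inside the range of the 3 Sham libraries for 21 of the 45 members (46.7%, against 25.9% of all genes). These 21 were all constitutive, and none was an immunoproteasome or PA28 gene. The excess in Sham 3 went with transcript length: across the 45 genes, the log2 ratio of Sham 3 to the mean of the other 8 libraries had a Spearman correlation of -0.53 with counts per FPKM, a measure that rises with length, and -0.34 across all genes. These are correlations across genes within the same libraries and are given as a description. Psme4, which encodes the large nuclear activator PA200, had the most counts per FPKM of the members and was also the lowest in Sham 3, with a log2 ratio of -1.02, whereas the median member had 0.38. The part of transcript length in the comparisons with Sham was not tested.

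The first comparison asked which genes the injury moved, setting IR against Sham. None of the 45 proteasome genes passed, at a smallest adjusted p of 0.389 by edgeR, where 0.305% of all genes passed. DESeq2 also called 0 members, on the 6 libraries of these groups (2.43% of all genes called) and on all 9 (3.35%). By the unadjusted p under 0.05 of edgeR, 0 members were higher and 2 lower (Psmb8 and LOC100911238), against 6.47% and 5.77% of all genes. The log2FC was below 0 for 30 members and above 0 for 15, with a median of -0.11 against -0.02 for all genes.

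This lean below 0 depended on Sham 3. Without it 28 members were above 0 and 17 below, with a median of 0.04, and without Sham 1 the median was -0.35, with 8 members lower at an unadjusted p under 0.05 and a smallest adjusted p of 0.0996 by edgeR. Without IR 1 the median was -0.02. The groups did not overlap in counts scaled by library size (CPM) for 2 members that were higher in IR, Psmd11 and Psmd12 (8.60% of all genes), and for 1 that was lower, Psmb8 (6.07%). In FPKM, the members whose groups did not overlap were Psmd12 above Sham (5.62% of all genes) and Psmb8, Psmd6 and Psme2 below it (9.44%).

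The 3 catalytic subunits of the immunoproteasome were below 0 in IR against Sham, with a median log2FC of -0.64 against -0.09 for the constitutive genes, and none of them passed the adjusted test. Psmb8, the immunoproteasome form of Psmb5 (rn6 chr20:3990613-3993769, plus strand), measured 38.3, 40.3 and 68.8 FPKM in Sham, 32.8, 30.1 and 28.4 FPKM in IR and 40.1, 38.1 and 26.3 FPKM in I-post C. All IR libraries lay below all Sham libraries, and I-post C overlapped both groups. The log2FC of Psmb8 was -0.65 (SE 0.28, adjusted p = 0.399 by edgeR) in IR against Sham, with a 95% interval of -1.29 to -0.02, and on leaving out each library it ran from -0.87 (without Sham 1) to -0.28 (without Sham 3).

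Psmb9, the immunoproteasome form of Psmb6 and a neighbor of Psmb8 (rn6 chr20:3973420-3978845, minus strand), measured 34.2, 23.9 and 66.0 FPKM in Sham, 19.9, 27.01 and 29.4 FPKM in IR and 40.2, 33.9 and 26.0 FPKM in I-post C. Sham 3 stood far above the rest and Sham 2 lay among the IR libraries. The log2FC was -0.64 (SE 0.39, adjusted p = 0.560 by edgeR) in IR against Sham, and -0.05 without Sham 3.

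Psmb10, the immunoproteasome form of Psmb7 (rn6 chr19:37909546-37912027, minus strand), measured 62.8, 58.1 and 107 FPKM in Sham, 48.8, 54.1 and 62.2 FPKM in IR and 68.1, 73.1 and 56.4 FPKM in I-post C. Sham 3 was again the highest library, and the IR range reached into that of Sham. The log2FC was -0.40 (SE 0.29, adjusted p = 0.625 by edgeR) in IR against Sham and -0.02 without Sham 3. The median log2FC of the 3 genes moved from -0.64 to -0.05 on leaving out that library.

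Their constitutive partners showed the same excess in Sham 3. Psmb5, the chymotrypsin-like subunit (rn6 chr15:33259043-33263659, minus strand), measured 58.5, 66.5 and 141 FPKM in Sham, 55.1, 68.6 and 82.3 FPKM in IR and 62.4, 70.9 and 72.7 FPKM in I-post C. Sham 1 and Sham 2 lay within the range of the IR libraries. Psmb6, the caspase-like subunit (rn6 chr10:57131386-57133637, plus strand), measured 62.7, 114 and 148 FPKM in Sham, 79.7, 88.9 and 99.2 FPKM in IR and 82.6, 77.3 and 90.0 FPKM in I-post C. The IR and I-post C libraries all fell between Sham 1 and Sham 2. Psmb7, the trypsin-like subunit (rn6 chr3:22871105-22952063, minus strand), measured 60.4, 91.6 and 97.5 FPKM in Sham, 70.1, 73.7 and 78.3 FPKM in IR and 63.2, 69.7 and 77.1 FPKM in I-post C. Here too every clamped library lay between Sham 1 and Sham 2. The log2FC in IR against Sham was -0.32 for Psmb5, -0.23 for Psmb6 and -0.12 for Psmb7, none passed, and without Sham 3 the signs turned, to 0.25, 0.09 and 0.04.

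Dividing each immunoproteasome subunit by the constitutive subunit it replaces removes what moved both genes alike. In Sham the FPKM ratio of Psmb9 to Psmb6 was 0.546, 0.210 and 0.447, against 0.2498, 0.304 and 0.297 in IR and 0.486, 0.438 and 0.289 in I-post C. The FPKM ratio of Psmb10 to Psmb7 was 1.04, 0.635 and 1.10 in Sham, against 0.695, 0.735 and 0.794 in IR and 1.08, 1.05 and 0.731 in I-post C. In both ratios Sham 1, Sham 3, I-post C 1 and I-post C 2 were above the other 5 libraries, and all groups overlapped. The FPKM ratio of Psmb8 to Psmb5 was 0.656, 0.607 and 0.487 in Sham, against 0.596, 0.439 and 0.345 in IR and 0.644, 0.538 and 0.362 in I-post C, without the same split. By group the first ratio averaged 0.401 ± 0.172 over the Sham libraries, 0.283 ± 0.029 in IR and 0.404 ± 0.103 in I-post C (SD, n = 3). The second averaged 0.924 ± 0.253, 0.741 ± 0.0497 and 0.953 ± 0.192, and the third 0.583 ± 0.0865, 0.460 ± 0.127 and 0.515 ± 0.142, in the same order. In each of the 3 ratios the mean was lowest in IR and the difference from Sham was smaller than the larger of the SDs of Sham and IR, and no test was run on these ratios. Leukocytes hold much immunoproteasome, and the sum of 4 leukocyte markers (Ptprc, Coro1a, Laptm5 and Cd53) was 322 to 365 FPKM in Sham, 249 to 455 FPKM in IR and 307 to 466 FPKM in I-post C. The sum of 4 neutrophil markers was 80.3 to 134 FPKM in Sham, 264 to 729 FPKM in IR and 152 to 1163 FPKM in I-post C, highest in I-post C 3, and that of 4 B cell markers was 43.2 to 56.0 FPKM, 14.2 to 74.7 FPKM and 35.9 to 164 FPKM. The sum of 6 T and NK cell markers was 74.1, 75.8 and 117 FPKM in Sham, 140, 51.4 and 54.2 FPKM in IR and 98.9, 123.1 and 55.9 FPKM in I-post C, highest in IR 1, where both ratios were low, and also high in Sham 3, I-post C 1 and I-post C 2. No gene of these marker lists passed by edgeR in any comparison, no listed marker of these 4 types was at 0 in all libraries, and the part of cell content in the ratios was not tested.

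**Figure D2:**
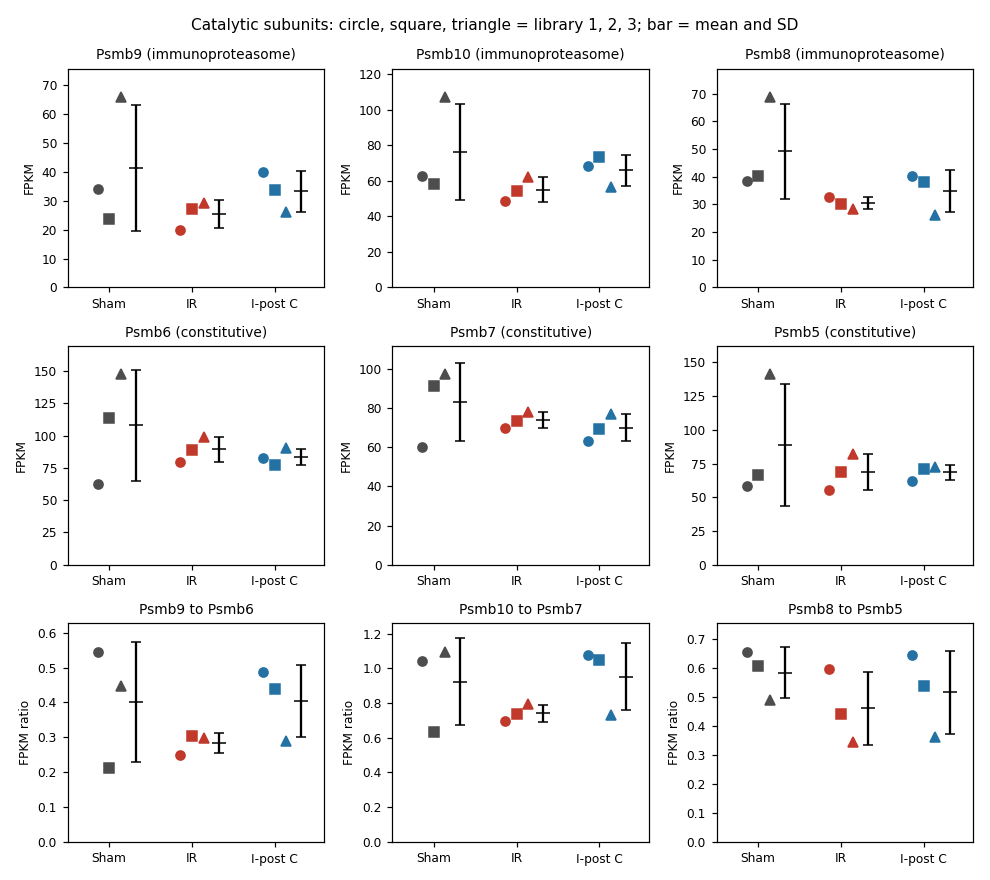
FPKM of the immunoproteasome catalytic subunits (top row) and of the constitutive subunit each replaces (middle row), and their FPKM ratio (bottom row), in Sham, IR and I-post C; circle, square and triangle are libraries 1, 2 and 3, and the bar gives the mean and SD of 3 libraries. Sham 3 is the top triangle for all 6 genes, and the ratios of all groups overlap.

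PA28 opens the core barrel for short peptides and is built from Psme1 and Psme2, which lie side by side (rn6 chr15:34256071-34258947, plus strand, and chr15:34265557-34269851, minus strand). Psme1 measured 173, 212 and 264 FPKM in Sham, 162, 168 and 210 FPKM in IR and 183, 198 and 180 FPKM in I-post C. Psme2 measured 77.4, 87.9 and 103 FPKM in Sham, 67.6, 59.8 and 77.3 FPKM in IR and 76.1, 85.0 and 63.7 FPKM in I-post C. In FPKM, Psme2 was lower in every IR library than in any Sham library by a narrow margin, and Psme1 overlapped. In CPM Psme2 overlapped too, with IR 3 at 134.9 and Sham 1 at 101.5. The log2FC in IR against Sham was -0.21 (SE 0.25) for Psme1 and -0.32 (SE 0.23, adjusted p = 0.612 by edgeR) for Psme2. Without Sham 3 that of Psme1 came to 0.0015. Ifng, which KEGG counts in this pathway as the inducer of the immunoproteasome, was listed at 0.566, 0.462 and 0 FPKM in Sham, at 0 in all 3 IR libraries and at 0.108, 0.223 and 0.235 FPKM in I-post C. These values lie too near the floor of the table for a comparison, and Ifng was not tested.

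The second comparison, I-post C against IR, asked what post-conditioning altered in the injured lung. No proteasome gene passed by edgeR, at a smallest adjusted p of 1, and 0% of all genes did. DESeq2 also called 0 members, where it called 0.456% of all genes on the 6 libraries and 0.125% on all 9. At an unadjusted p under 0.05 by edgeR there were 0 members in either direction, against 1.05% of all genes higher and 1.96% lower. The log2FC was below 0 for 36 members and above 0 for 9, with a median of -0.12 against -0.01 for all genes. All 3 immunoproteasome genes were among the 9 above 0, with a median of 0.11, while the constitutive genes had a median of -0.14.

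The counts around 0 moved with the scaling, which moved all genes alike. With library totals 22 members were above 0 and 23 below (median of all genes 0.08), and with log2(FPKM + 0.5) in limma 26 and 19 (median of all genes 0.11). Relative to the median of all genes 10 and 11 members lay above in these fits, against 9 in the first. Without IR 3 the members lay around the median of all genes, with 23 above it and 22 below. The median of the immunoproteasome genes exceeded that of the constitutive genes by 0.24, and by 0.26, 0.25 and 0.32 with library totals, in limma and without IR 3. On leaving out each library this gap ran from 0.12 (without I-post C 2) to 0.43 (without I-post C 3). It rests on 3 genes, whose standard errors were 0.28 (Psmb8) to 0.39 (Psmb9). The groups did not overlap in CPM for Psmf1, which was higher (5.77% of all genes), and for Psmd1, Psmd2 and Psmd14, which were lower (5.86%). In FPKM the members apart were Psmb4, Psme3 and Psmf1, all higher (11.2% of all genes), and 0 were lower (2.59%), since Psmd1, Psmd2 and Psmd14 overlapped.

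The third comparison set I-post C against Sham and shares the Sham libraries with the first. No member passed by edgeR, at a smallest adjusted p of 0.745, and 0% of all genes did, while DESeq2 called 0 members and 0.765% of all genes on the 6 libraries or 1.04% on all 9. At an unadjusted p under 0.05 by edgeR 0 members were higher or lower, against 3.72% and 3.19% of all genes. The log2FC was below 0 for 38 members, with a median of -0.25 against -0.03 for all genes, and was -0.40 at the median of the immunoproteasome genes and -0.22 at that of the constitutive genes. Without Sham 3 it was below 0 for 26 members, with a median of -0.04, and without Sham 1 the median was -0.47, with 18 members lower at an unadjusted p under 0.05 and a smallest adjusted p of 0.114 by edgeR. The order of the class medians turned without Sham 3, to 0.10 for the immunoproteasome genes and -0.04 for the constitutive genes. Psmd11, a scaffold of the lid, was the only member whose groups did not overlap in CPM (5.68% of all genes higher), and 0 members lay wholly below (3.65%), whereas in FPKM it was Psmd12 (5.56% of all genes higher and 4.08% lower). Psmb3, a structural beta subunit, measured 91.0, 152 and 199 FPKM in Sham and 104, 102 and 109 FPKM in I-post C. Its I-post C libraries lay between Sham 1 and Sham 2, and its log2FC of -0.60 (SE 0.31, adjusted p = 0.748 by edgeR) was the lowest of the members, at -0.27 without Sham 3 and -0.90 without Sham 1.

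The data bounded most of these changes. The 95% interval of the log2FC lay between -1 and 1 for 34 of the 45 members in IR against Sham (42.1% of all genes), for 36 in I-post C against IR (51.1%) and for 34 in I-post C against Sham (44.5%). The median standard error of the members was 0.245 on the log2 scale in IR against Sham, against 0.337 over all genes. These comparisons with all genes were not matched on level either. A p that misses the threshold does not show that the groups were alike, and changes smaller than these intervals could not be seen at 3 libraries a group.

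**Figure D3:**
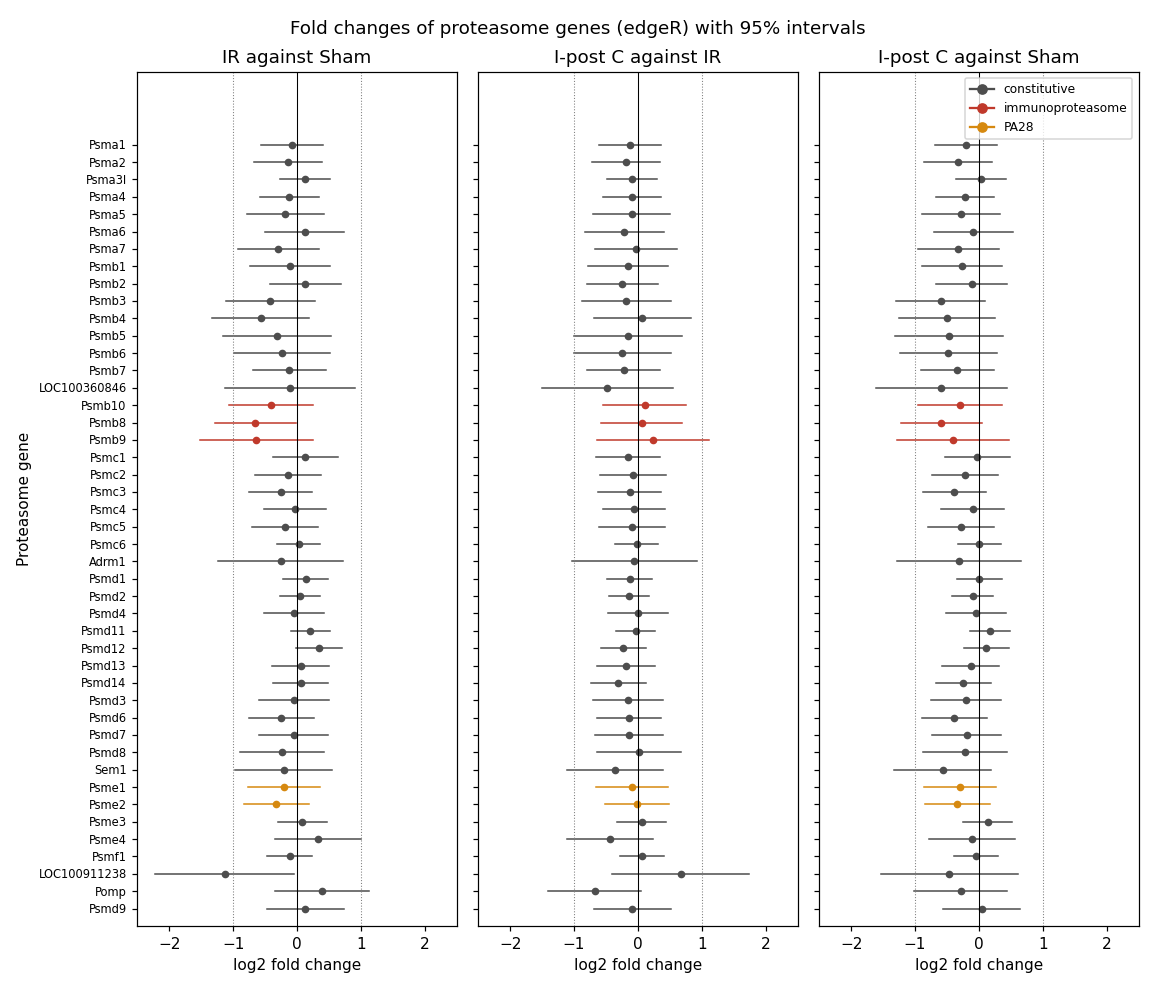
log2 fold change (x axis) of each of the 45 proteasome genes with its 95% interval in the 3 comparisons, from edgeR on all 9 libraries; gray is constitutive, red immunoproteasome and orange PA28, and dotted lines mark -1 and 1. The intervals of 34, 36 and 34 genes lie between the dotted lines, and the interval of LOC100911238 is the widest in IR against Sham.

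In IR against Sham and in I-post C against IR, the ends of the range were held by the assembly chaperone Pomp, which helps the beta subunits into the core, and LOC100911238, annotated as similar to it. Both lie on chromosome 12 of rn6, Pomp at chr12:8976585-8989214 on the plus strand and LOC100911238 at chr12:8746855-8759599 on the minus strand. LOC100911238 measured 48.6, 78.7 and 74.1 FPKM in Sham, 12.3, 53.9 and 22.8 FPKM in IR and 49.1, 50.2 and 56.5 FPKM in I-post C. IR 1 and IR 3 were low and IR 2 was not. Pomp measured 64.6, 113 and 104 FPKM in Sham, 137, 76.2 and 144 FPKM in IR and 80.2, 89.1 and 77.8 FPKM in I-post C. Pomp was highest in IR 1 and IR 3, the libraries in which LOC100911238 was lowest.

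The log2FC in IR against Sham was -1.13 (SE 0.48, adjusted p = 0.389 by edgeR) for LOC100911238 and 0.39 (SE 0.33, adjusted p = 0.681 by edgeR) for Pomp. Without IR 2 these were -1.86 and 0.62, whereas that of LOC100911238 was -0.74 without IR 1 and that of Pomp 0.12 without IR 3. In I-post C against IR it was 0.67 and -0.68 (both at an adjusted p = 1 by edgeR), the highest and the lowest of the 45 members. LOC100911238 took 41.1 to 42.9% of the summed FPKM in Sham, 36.0 to 42.1% in I-post C and 8.22, 41.4 and 13.7% in IR. The sum was steadier than either gene, with a coefficient of variation of 17.3% against 28.4% for Pomp and 42.9% for LOC100911238, and averaged 161 ± 41.8 FPKM in Sham, 149 ± 18.1 FPKM in IR and 134 ± 4.94 in I-post C (SD, n = 3). How reads that match both genes were assigned is not known here, so the values of each gene alone are uncertain.

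**Figure D4:**
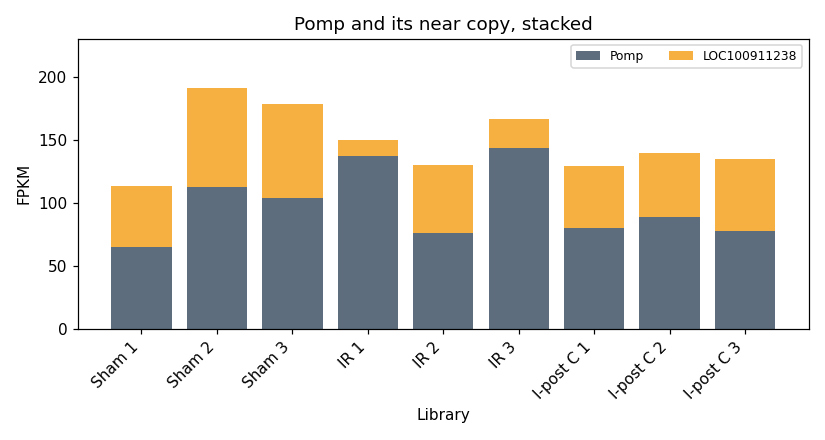
FPKM of Pomp (gray) and LOC100911238 (orange) stacked for each of the 9 libraries. The orange part is 8.22% of the bar in IR 1 and 13.7% in IR 3, against 36.0 to 42.9% in the other 7 libraries.

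Other members were named because they lay among the 3 highest or 3 lowest of a comparison. Psmd12, a scaffold of the lid, measured 39.8, 36.4 and 32.6 FPKM in Sham, 40.6, 44.9 and 45.3 FPKM in IR and 40.6, 39.9 and 42.6 FPKM in I-post C. All clamped libraries were above all Sham libraries in FPKM, and the log2FC in IR against Sham was 0.35 (SE 0.16, adjusted p = 0.422 by edgeR). Psme4 measured 32.3, 19.8 and 11.3 FPKM in Sham, 30.2, 24.2 and 20.2 FPKM in IR and 25.5, 17.8 and 16.5 FPKM in I-post C. The Sham libraries alone covered all the others, at a log2FC of 0.33 (SE 0.30) in IR against Sham (0.05 without Sham 3 and 0.64 without Sham 1) and -0.44 (SE 0.30) in I-post C against IR. Psmd11 measured 26.3, 20.7 and 19.4 FPKM in Sham, 24.2, 25.9 and 22.5 FPKM in IR and 25.1, 26.7 and 25.8 FPKM in I-post C, and its log2FC of 0.17 (SE 0.14) in I-post C against Sham was the highest of the members. Psme3, the nuclear activator PA28 gamma, measured 24.3, 28.1 and 23.1 FPKM in Sham, 26.0, 26.7 and 23.8 FPKM in IR and 28.2, 27.2 and 31.9 FPKM in I-post C. Sham 1 kept Psmd11 from separating in FPKM and Sham 2 did so for Psme3, whose log2FC in I-post C against Sham was 0.14 (SE 0.17). LOC100360846, the gene similar to Psmb6, measured 1.85, 3.89 and 3.24 FPKM in Sham, 1.91, 3.07 and 3.04 FPKM in IR and 2.11, 1.72 and 2.54 FPKM in I-post C. Its likeness to Psmb6 leaves its values uncertain, and its log2FC was -0.48 (SE 0.46) in I-post C against IR and -0.59 (SE 0.46) in I-post C against Sham.

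Genes that act on or with the proteasome were read from lists, and none of their genes passed by edgeR in any comparison. The 6 assembly chaperones outside the KEGG set, which build the alpha ring and the base, were all below 0 in IR against Sham. Their median log2FC was -0.48. In I-post C against IR 5 of 6 were above 0, with a median of 0.10. Of all genes, 47.9% and 47.6% were above 0 in these comparisons. In FPKM, Sham 3 was the highest Sham library for Psmg1, Psmg3 and Psmg4, but not for Psmg2, Psmd5 and Psmd10. For Psmd10 this was narrow, at 12.75 FPKM in Sham 1 and 12.62 FPKM in Sham 3. The order in CPM and the median of the list without Sham 3 were not examined. On leaving out each library the log2FC ran from -0.75 to -0.42 for Psmg2 and from -0.48 to -0.34 for Psmd5. Psmg4 measured 13.2, 9.77 and 33.3 FPKM in Sham. Psmg2, a chaperone of the alpha ring, measured 17.7, 25.4 and 23.3 FPKM in Sham and 15.6, 13.7 and 14.8 FPKM in IR. Its IR libraries lay below all Sham libraries in FPKM but not in CPM, at a log2FC of -0.54 (SE 0.24, adjusted p = 0.406 by edgeR). The 5 genes listed for the NRF1 pathway include Nfe2l2, which encodes a separate factor, the oxidative stress factor NRF2. Of the 5, 4 were above 0 in IR against Sham, where 47.9% of all genes were. Nfe2l1, which encodes NRF1 itself, measured 50.7, 23.9 and 16.3 FPKM in Sham and 45.1, 47.3 and 28.3 FPKM in IR. Its Sham 1 value was above every IR library. Nfe2l2 was the farthest of the list at 0.76 (SE 0.26, adjusted p = 0.296 by edgeR). It measured 65.2, 65.6 and 60.5 FPKM in Sham, 72.7, 133 and 101 FPKM in IR and 83.0, 68.0 and 95.7 FPKM in I-post C, and every clamped library exceeded every Sham library in FPKM, while in CPM this held for IR and not for I-post C. Among the 11 deubiquitinases, ligases and shuttles of the proteasome, 5 were above 0 and 6 below in IR against Sham, all within -0.36 to 0.25.

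Of the genes in these lists, Rps27a had the smallest adjusted p by edgeR in IR against Sham. This gene, which encodes ubiquitin fused to a ribosomal protein, measured 493, 904 and 1006 FPKM in Sham, 187, 319 and 225 FPKM in IR and 218, 197 and 351 FPKM in I-post C. All clamped libraries were below all Sham libraries. The log2FC was -1.68 (SE 0.39, adjusted p = 0.143 by edgeR) in IR against Sham and -1.75 (SE 0.39, adjusted p = 0.323 by edgeR) in I-post C against Sham, and DESeq2 on all 9 libraries called both, at adjusted p of 0.00227 and 0.00307.

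Of the 14 interferon factors and targets listed, 11 were above 0 in IR against Sham (47.9% of all genes). The median log2FC of the list was 0.33, while all 3 immunoproteasome genes were below 0. Without Sham 3 the median of the immunoproteasome genes was -0.05, and that of the interferon list was not examined. In FPKM, Sham 3 was the lowest Sham library for all of the list but Irf8, Irf9, Ifngr1, Ifngr2 and Cxcl10. Jak2, a kinase of the interferon receptors, measured 21.1, 14.3 and 8.25 FPKM in Sham, 24.1, 31.5 and 26.5 FPKM in IR and 19.5, 22.2 and 26.0 FPKM in I-post C. The IR libraries lay above all Sham libraries, at a log2FC of 1.02 (SE 0.27, adjusted p = 0.214 by edgeR), and DESeq2 called it on all 9 libraries (adjusted p of 0.0314) but not on the 6 compared (adjusted p of 0.102). Cxcl10, an interferon-induced chemokine, measured 3.73, 1.56 and 1.67 FPKM in Sham and 3.57, 6.90 and 41.6 FPKM in IR. IR 3 stood far above the rest. The log2FC was 3.13 (SE 0.89, adjusted p = 0.237 by edgeR) and 1.21 without IR 3, although DESeq2 on all 9 called it at an adjusted p of 0.00535. Another list held 8 genes for the loading of MHC class I with the peptides the proteasome makes. Of these, 3 were above 0 and 5 below in IR against Sham, and again in each of the other comparisons. The 3 included Nlrc5, which was low, at 0.61 FPKM (Sham 3) to 5.20 FPKM (Sham 1). The farthest from 0 in IR against Sham was Tapbp, the bridge between the peptide transporter and MHC class I. Its log2FC was -0.47 (SE 0.38, adjusted p = 0.672 by edgeR). Tapbp measured 30.7, 17.9 and 57.3 FPKM in Sham and 24.5, 24.8 and 24.4 FPKM in IR. Its log2FC without Sham 3 was not examined.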

How the data were processed

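Poly(A) RNA of rat lung was sequenced as paired ends from 9 dUTP-stranded libraries. The labels gave each library its group and number, and the methods of the study gave the times and cycles. The authors trimmed reads with cutadapt 1.9, mapped them with HISAT2 2.2.1 to rn6 and assembled and quantified transcripts with StringTie 2.1.6, per the submitters' processing notes. The FPKM values deposited by the authors are scaled for transcript length and library size. The count values deposited by the authors are whole numbers per gene, not normalized. How they were made, and whether strand was used, is not stated in the sources used here.

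Counts of the 15402 genes with a mean of at least 0.5 FPKM were fitted with edgeR 4.0.16 in R 4.3.3 (TMM scaling, quasi-likelihood F test, all 9 libraries, group only, two-sided), with Benjamini-Hochberg adjustment over all of them and a threshold of 0.05. The common biological coefficient of variation was 0.406. Scripts were tested on simulated data. Alternatives were DESeq2 1.42.0, limma 3.58.1 on log2(FPKM + 0.5) and log2(FPKM + 0.1), other scalings and samples, no FPKM filter, a replicate block and leaving out each library. Groups that do not overlap were counted in TMM-scaled CPM and, where named, in FPKM. The labels do not say that replicates came from separate rats, so p-values measure the spread between these libraries. Members, lists and tests were chosen with earlier results of these data known. LOC100911238 and Psmd9 were grouped as chaperones, and Psma3l and LOC100360846 by their annotation, after the table was seen. The genes named are the catalytic and PA28 subunits, Ifng, the 3 members with the highest and the 3 with the lowest log2FC in each comparison, the most and least abundant member of each structural group and the 2 genes with the smallest p of a pathway list; Psmd2, Psmf1, Psmd6, Psmd14, Psmb4 and members named only for not overlapping were named after their values were seen. Fold changes are given for the genes these results turn on. The rat promoter windows came from RefSeq (GRCr8), and the coordinates of genes from the table (rn6). Some genes of the lists are not reported here.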

Additional observations from a re-analysis of the deposited data

How the results depend on the processing

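No proteasome gene was called in any comparison under edgeR or under any of the alternatives run. The number of genes called in all varied more. In IR against Sham it was 47, and became 510 with DESeq2 on all 9 libraries, 363 with DESeq2 and 6 with edgeR on the 6 libraries compared, 28 with library totals, 5 without Sham 3 and IR 3, and 0 to 55 on leaving out each library. In I-post C against IR it was 0, and became 19 and 67 with DESeq2 on 9 and 6 libraries, 1 without Sham 3 and IR 3, and 0 to 1 on leaving out each library. In I-post C against Sham it was 0, and became 155 and 117 with DESeq2, 1 with limma at either pseudocount, 2 without Sham 3 and IR 3, and 0 to 8 on leaving out each library. With the replicate number as a block the count in IR against Sham was 26, and no member was called. Correlations between the deviations of same-numbered libraries ranged from -0.29 to 0.47, and those of differently numbered libraries from -0.41 to 0.41. The numbers were not read as pairs. Without Sham 3 the log2FC of 15 members changed sign in IR against Sham. Ranges over fits that left out 1 library were examined for the genes whose fold changes are given, except Tapbp. In IR against Sham the range crossed 0 for Psmb5 (-0.602 to 0.247), Psmb6 (-0.559 to 0.094), Psmb7 (-0.367 to 0.0436) and Psme1 (-0.439 to 0.0015). These genes were above 0 only without Sham 3. In I-post C against IR it crossed 0 for Psmb10 (-0.029 to 0.294), below 0 only without IR 1. Without both Sham 3 and IR 3 the log2FC of Psmb5 in IR against Sham was 0.0038. The cause was not tested. With 3 libraries a group and 2 that lay farthest out, changes within the intervals given above could not be resolved.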

Other observations

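Psma8, a core subunit of the testis, was listed at 0.0354 FPKM in Sham 1, 0.082 FPKM in I-post C 1 and 0.0312 FPKM in I-post C 3, and at 0 in the other 6 libraries. Psmb11, the catalytic subunit of the thymus, was listed at 0.0769 FPKM in IR 2, 0.081 FPKM in I-post C 1 and 0.145 FPKM in I-post C 3, and at 0 in the other 6. Neither was tested.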
